A study of Mus musculus with 3 samples.

Results

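Angiopoietin and Tie receptor genes were followed across the cell classes of the mouse retina at 3 ages. The set was chosen by symbol and holds 5 of the 32285 genes measured: the ligand genes Angpt1 and Angpt2, the receptor genes Tek (which encodes Tie2) and Tie1, and Ptprb (which encodes the phosphatase VE-PTP). Retinas of C57BL/6JRj mice were taken at 3 months of age (the young library), at 12 months (adult) and at 23 months (old), dissociated, enriched with beads for CD31, a surface protein of endothelial cells, and profiled in droplets from which the 3′ ends of transcripts were read. No treatment or transgene was used, the sex of the mice is not given in the sources used here, and the retinas of 2 mice were pooled in 1 library per age, 3 libraries in all. With 1 library per age there was no replicate of any age, so no test between ages was possible. Every interval below is an exact 95% interval that covers counting error only, and the unit is the unique molecular identifier (UMI), which counts each captured transcript once. Levels are UMIs of a gene scaled to 1000000 UMIs of its cell class (CPM).

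Tie2 and Tie1 are receptor tyrosine kinases of endothelial cells, the cells that line blood vessels. Angiopoietin-1 is known as the ligand that activates Tie2 and keeps vessels quiescent and sealed, and angiopoietin-2 acts as a weak or context-dependent ligand that can oppose it. VE-PTP sits at endothelial junctions and removes phosphate from Tie2. In the retina, pericytes and smooth muscle cells, together called mural cells, wrap the endothelium, and this ligand and receptor system is a drug target in retinal vascular disease.

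Positions are given on GRCm38. Tek lies on the plus strand of chromosome 4 (94739289 to 94874976) and Tie1 on the minus strand of the same chromosome (118471191 to 118490061). Ptprb lies on the plus strand of chromosome 10 (116275523 to 116389535), Angpt1 on the minus strand of chromosome 15 (42424723 to 42676977) and Angpt2 on the minus strand of chromosome 8 (18690263 to 18741562). Promoter sequences from RefSeq (GRCm38.p6) were at hand for 2 of the 5 genes, Tek and Tie1. Both are shown. These receptor genes also had the most alike pattern over cell classes of any pair in the set. The windows run from 250 bases before to 50 bases after the RefSeq start and are chr4:94739039-94739338 (plus strand) for Tek and chr4:118489800-118490099 (minus strand) for Tie1, each written 5′ to 3′ along its gene. Capitals mark matches, on either strand and with overlaps allowed, to letters known from the binding motifs of 5 factor families. For ETS factors these were CCGGAA and the shorter core sequence GGAAG, for FOXO factors GTAAACA, for GATA factors AGATAA, for SOX factors ATTGTT, and for KLF factors CACCC.
Tek: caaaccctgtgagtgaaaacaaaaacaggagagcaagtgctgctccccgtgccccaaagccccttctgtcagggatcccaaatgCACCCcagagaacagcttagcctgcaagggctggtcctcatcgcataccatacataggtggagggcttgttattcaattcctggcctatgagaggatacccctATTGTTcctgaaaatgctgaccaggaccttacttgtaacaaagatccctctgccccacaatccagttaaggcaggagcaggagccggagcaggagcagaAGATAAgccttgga
Tie1: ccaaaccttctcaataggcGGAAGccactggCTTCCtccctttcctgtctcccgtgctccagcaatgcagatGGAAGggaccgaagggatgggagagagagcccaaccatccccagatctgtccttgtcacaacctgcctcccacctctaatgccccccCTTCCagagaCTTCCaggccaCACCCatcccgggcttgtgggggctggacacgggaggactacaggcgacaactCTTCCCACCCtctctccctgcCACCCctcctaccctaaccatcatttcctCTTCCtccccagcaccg
The Tek window held 1 match each to the KLF, SOX and GATA letters, which occur in 57.5, 10.7 and 11.2% of the 32817 promoter windows of the same length. The Tie1 window held 7 matches to the ETS core and 3 to the KLF letters. At least 1 match to the ETS core was present in 71.4% of all windows, and 0.232% held 7 or more. Neither window held the longer ETS letters (14.9% of windows) or the FOXO letters (3.65%). The GC content was 52.0% for Tek and 60.3% for Tie1 beside a median of 52.7% over all windows. These are matches of letters in a window and no measure of binding.

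Of 2491, 3243 and 2751 barcodes of the libraries from young to old, 1713, 1974 and 1713 were within the study's limits of 500 to 6000 genes and 1 to 20% mitochondrial UMIs. After removal of 8, 17 and 12 called doublets, 1705, 1957 and 1701 cells were used, with median depths of 6353, 5964 and 6296 UMIs per cell. Adult and old shared 3 barcodes (2 within the limits), young and adult shared 1 (0 within the limits) and young and old 0. The 22 clusters gave an endothelial class (442, 432 and 406 cells, all 8 fixed markers met), pericytes (170, 130 and 103 cells) and smooth muscle cells (38, 38 and 37). Droplets with both endothelial and pericyte markers formed a mixed class of 312, 250 and 225 cells that was kept out of the others. Endothelial cells made up 25.9, 22.1 and 23.9% of the cells used from young to old. Other droplets with endothelial markers were the mixed class (18.3, 12.8 and 13.2%), a cluster led by Gm26917 (3.75, 3.63 and 5.06%) and mixed endothelial and erythroid droplets (1.29, 1.23 and 1.12%).

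Tek was an endothelial transcript at all 3 ages. In the endothelial class its level was 445 CPM in the young library (1440 UMIs, 423 to 469), 423 CPM in the adult library (1430 UMIs, 401 to 445) and 394 CPM in the old library (1421 UMIs, 374 to 415). A Tek UMI was found in 88.2, 81.9 and 89.9% of these cells. In rods, which should lack Tek, the shares were 0.602, 0.935 and 0.424%, at median depths of 2287, 2423 and 2152.5 UMIs against 5648, 5993 and 7474 UMIs in endothelial cells. After thinning of each cell to 2000 UMIs the endothelial shares were 58.9, 48.8 and 53.6% and those of rods 0.952, 0 and 0.704%. The order of the libraries by share of cells thus changed with thinning, and only the summed levels are compared between ages.

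Tek was lower in mural cells and glia. Pericytes had 24.1, 23.9 and 38.0 CPM from young to old (17, 13 and 19 UMIs), which is 18.5-fold, 17.7-fold and 10.4-fold below the endothelial class (intervals of 11.5 to 31.8, 10.3 to 33.3 and 6.61 to 17.3). These folds were 44.5, 53.8 and 21.0 with each cell's class taken from its own markers, and the old one was 6.57 (1.09 to 268) without cells that held 2 or more marker UMIs of another class. Smooth muscle cells held 0, 2 and 3 Tek UMIs. Müller glia, the main glia of the retina, held 2, 1 and 2 Tek UMIs in 181, 214 and 208 cells. A cluster of 221 cells with endothelial markers but led by Gm26917 and low in UMIs was left unnamed. It had Tek at 419, 312 and 356 CPM, and the mixed endothelial and erythroid droplets at 213, 251 and 278 CPM. A mixed T cell and microglia cluster held 0, 27 and 3 Tek UMIs. The 27 adult ones, 108 CPM, were in 3 of 29 cells, and the endothelial markers of that group were at 14.9% of the endothelial level.

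Tie1, the receptor that pairs with Tie2 and has no well-established ligand of its own, followed the same classes. Its endothelial level was 183 CPM in the young library (593 UMIs, 169 to 199), 171 CPM in the adult library (578 UMIs, 157 to 185) and 171 CPM in the old library (616 UMIs, 158 to 185). All 3 intervals overlapped. Pericytes had 19.9, 18.4 and 18.0 CPM, which is 9.23-fold, 9.29-fold and 9.48-fold lower, and rods held 1, 1 and 0 Tie1 UMIs. The size of that fold moved with the processing: it was 10.6, 14.4 and 19.2 with each cell's class taken from its own markers, and 7.56, 6.68 and 5.79 after thinning to 2000 UMIs. In the unnamed cluster led by Gm26917, Tie1 was at 314, 188 and 191 CPM, which is 171, 110 and 112% of the endothelial level.

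Ptprb was detected in nearly every endothelial cell. Its level was 1979 CPM in the young library (6398 UMIs, 1931 to 2028), 1878 CPM in the adult library (6354 UMIs, 1832 to 1924) and 1711 CPM in the old library (6169 UMIs, 1668 to 1754). These 3 intervals did not overlap: young was highest and old lowest. A Ptprb UMI was seen in 98, 96.3 and 96.6% of endothelial cells and in 0, 1.87 and 0.847% of rods. After thinning to 2000 UMIs the shares were 93.7, 91.6 and 89.3% in endothelial cells and 0, 1.85 and 0.704% in rods.

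Pericytes had Ptprb at 138, 91.9 and 182 CPM (97, 50 and 91 UMIs). The endothelial class was 14.4-fold, 20.4-fold and 9.39-fold above them, and the ratio of old to adult within pericytes was 1.98 (1.39 to 2.86). Both results depended on which cells were called pericytes. With each cell's class taken from its own markers the endothelial class was 22, 54.4 and 49.6-fold above pericytes, and the old to adult ratio in pericytes was 1.03 (0.345 to 3.00). With mixed droplets, which hold endothelial RNA, counted as pericytes that ratio was 0.841 (0.808 to 0.875). Smooth muscle cells held 1, 22 and 17 Ptprb UMIs, and 19 of the 22 adult ones came from 1 cell. Bipolar cells, which are retinal interneurons, held 14, 26 and 10 Ptprb UMIs, of which 13 of the 26 adult ones came from 1 cell. In the largest bipolar cluster, pooled over libraries, Ptprb was spread over 22 of 240 cells (9.17%), with at most 3 UMIs in 1 cell. In the larger Müller cluster 2.87% of 488 cells held it, at median depths of 8104.5 UMIs (bipolar) and 9984.5 UMIs (Müller).

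**Figure D1:**
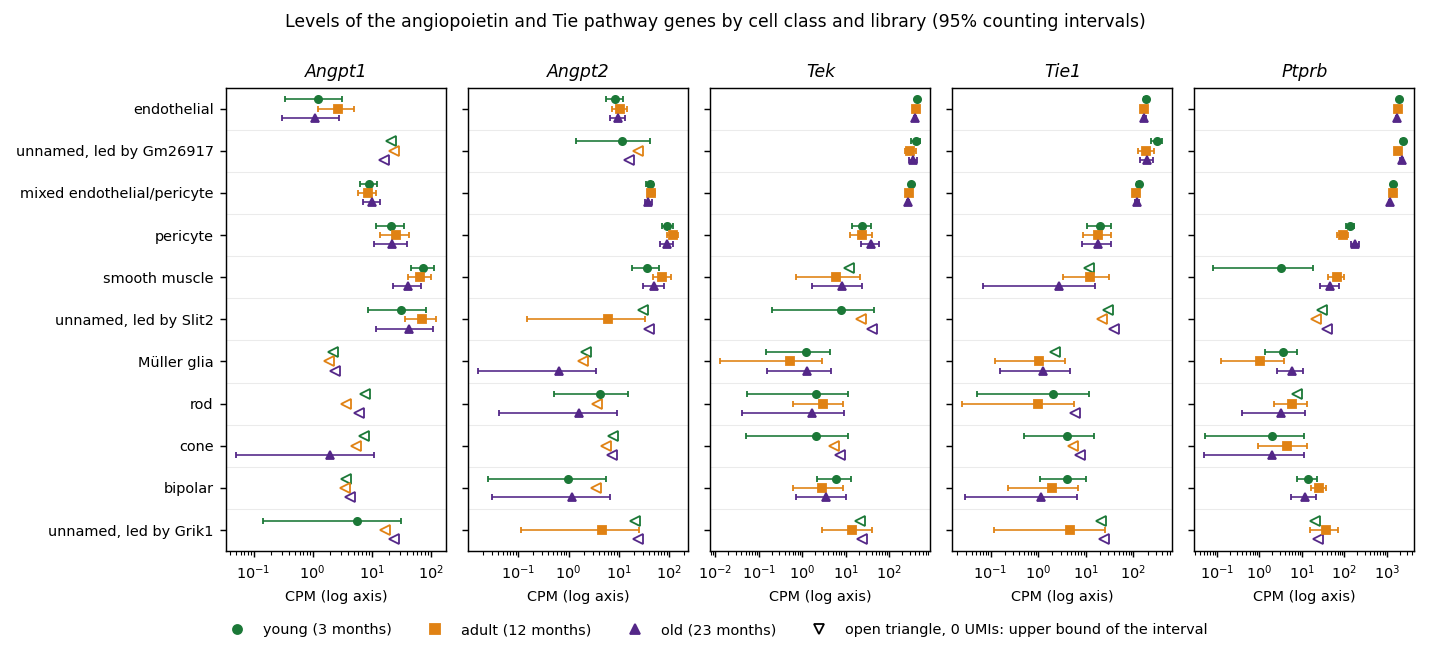
Level of each gene (CPM, log axis, with its own range per panel) in 11 cell classes, with 1 point per library and bars for exact 95% counting intervals; an open triangle stands at the upper bound where a class held 0 UMIs. Of the classes drawn, Tek, Tie1 and Ptprb were highest in the endothelial class and the clusters that share its markers, Angpt2 in pericytes, and Angpt1 in smooth muscle cells and the cluster led by Slit2, whose intervals overlapped. The pigment epithelium cluster, with Angpt1 at 69.1 CPM pooled, is not drawn.

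The low receptor RNA of other classes was set beside other endothelial RNA in the same droplets. In pericytes, pooled over libraries, Tek was at 6.68%, Tie1 at 10.8% and Ptprb at 7.36% of the endothelial level, and the 8 endothelial markers summed to 4.91% of theirs (3.91% without Flt1). All 3 genes were thus above the marker sum. By library, the endothelial markers in pericytes were at 4.28, 4.98 and 5.74% of the endothelial level and Ptprb at 6.96, 4.90 and 10.6%. Per UMI of Tek there were 4.41 UMIs of Ptprb in endothelial cells (4.27 to 4.56), 4.52 in the mixed class (4.36 to 4.69), 4.86 in pericytes (3.56 to 6.75) and 5.97 in the cluster led by Gm26917 (5.14 to 6.96). The pericyte ratio overlapped the endothelial ratio, and that of the cluster led by Gm26917 did not.

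Among pericytes, 27 cells held fewer than 2 UMIs of the markers of any non-mural class. They had 1 Tek UMI, 0 Tie1 UMIs and 0 Ptprb UMIs of 52718, where 3 counts would be 56.9 CPM. This bound lies under the Ptprb level of all pericytes and above their Tek and Tie1 levels. The filter removed cells with endothelial marker UMIs, so low receptor RNA was partly set by the selection. It also left few UMIs, as all 403 pericytes held 1747914. It counted markers of horizontal and ganglion cells too, which summed to 1227 and 689 CPM in young pericytes. The part that endothelial RNA carried into pericyte droplets has in their receptor levels was not tested further.

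Müller glia stood apart from this pattern. Their endothelial marker sum was 4.27% of the endothelial level, but it came from Flt1, a receptor for vascular endothelial growth factor that they expressed at 650 CPM. Without Flt1 the other 7 markers were at 0.523%. Tek, Tie1 and Ptprb were at 0.231, 0.443 and 0.178% in these cells.

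**Figure D2:**
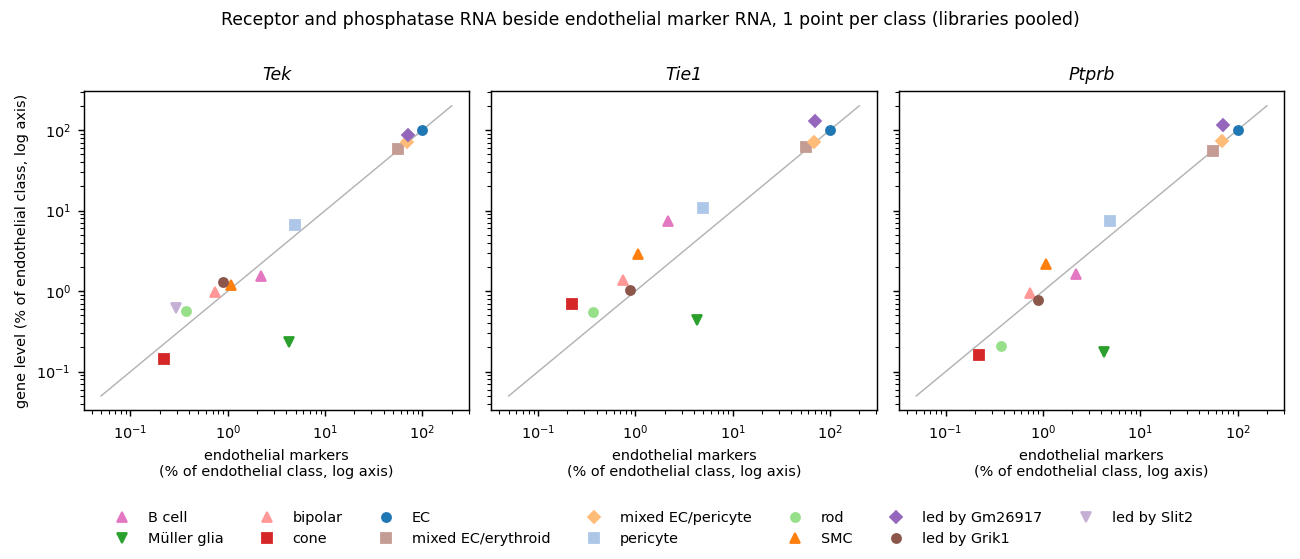
Level of Tek, Tie1 and Ptprb in each class (% of the endothelial class, log axis) against the summed level of 8 endothelial markers in the same class (%, log axis), libraries pooled, 1 symbol per class with at least 1 UMI of the gene; the grey line marks equal percentages and EC and SMC stand for endothelial and smooth muscle cells. Pericytes, smooth muscle cells and neurons lie within a few fold of the line, and Müller glia lie far below it through Flt1.

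Endothelial age ratios were taken next, with no threshold of significance since each age is 1 library. Ptprb was lower in old than in young cells (ratio 0.864, 0.835 to 0.895), lower in adult than in young (0.949, 0.916 to 0.982) and lower in old than in adult (0.911, 0.880 to 0.944). Tek was lower in old than in young (0.885, 0.822 to 0.953), and its ratio of adult to young (0.949, 0.881 to 1.02) included 1. For Tie1 both ratios to young were 0.931, with intervals of 0.831 to 1.04 for old and 0.829 to 1.05 for adult. In the 97 endothelial cells with fewer than 2 marker UMIs of any other class the old to young ratio was 1.2495 for Tek (0.774 to 1.97), 0.438 for Tie1 (0.133 to 1.14) and 0.920 for Ptprb (0.700 to 1.20). These 3 intervals included 1, and only 16 of the 97 cells, with 5 Tie1 UMIs, were old.

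In the whole endothelial class these differences stayed within a fold of 1.5. Called past the fold means here a ratio of at least 1.5 or at most 1/1.5 among genes with at least 50 UMIs over the pair of libraries. For old over young, 4.91% of 8962 genes were past it upward and 3.1% downward, and 0 of the 4 measured genes of the set were past it in either direction (Angpt1 had too few UMIs). For adult over young the background was 2.91% upward and 1.48% downward, for old over adult 3.01% and 3.1%, and again 0 of 4 were past it. Of all 8962 genes, 19.5% had a ratio of old to young as low as that of Ptprb, 22.5% as low as that of Tek and 31.8% as low as that of Tie1. Ratios of genes with few UMIs vary more through counting error. Among the 1024 genes with at least 1000 UMIs the shares were 8.59, 10.1 and 17.8%, so the 3 genes stood lower among well-counted genes.

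The mixed endothelial and pericyte droplets are other cells of the same libraries. In them Ptprb was at 1423, 1426 and 1187 CPM from young to old, an old to young ratio of 0.834 (0.802 to 0.867) and an adult to young ratio of 1.00 (0.966 to 1.04). Tek was at 328, 291 and 272 CPM, with an old to young ratio of 0.827 (0.761 to 0.898). Tie1 was at 130, 115 and 120 CPM (0.924, 0.813 to 1.05). Old was thus the lowest library for Ptprb and Tek in this class too.

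RNA of other cells moved with age in the endothelial class. The summed pericyte markers were 1950, 1983 and 1226 CPM from young to old, and erythroid markers 559, 199 and 1407 CPM, with 0 of the 7 and 0 of the 5 markers absent in any library. Of 12 genes known to rise with tissue dissociation, Fosb, Hspa1a and Hspa1b were past the fold downward in old, beside 3.1% of all genes, and 0 were past it upward. The other way, 8 of the 12 were higher in old than in young, and the median log2 ratio of the list was 0.11. The part of these shifts in the receptor levels was not tested.

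The endothelial class was clustered again into 6 sub-clusters, of which 5 are described, named by vessel zone from fixed markers by a rule chosen once these sub-clusters were known. There were an arterial-like sub-cluster (240 cells), a venous-like one (70), a capillary-like one (441 cells, led by the interferon and stress genes Cxcl10, Cxcl9 and Hspa1b), one led by Myl9 and pericyte genes (177) and one led by Pf4, a platelet gene (14). The arterial-like cells were highest for 7 of 8 arterial markers and the venous-like cells for 6 of 7 venous markers. The capillary-like cells were highest for only 3 of 6 capillary markers, the fewest the rule allowed.

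Ptprb differed among vessel zones. In the arterial-like cells it was at 2869, 2444 and 2572 CPM in the young, adult and old library. The capillary-like cells had 1867, 1869 and 1565 CPM and the venous-like cells 2333, 1854 and 1722 CPM. Arterial-like cells were above capillary-like cells in all 3 libraries (ratios of 1.54, 1.31 and 1.64, with intervals of 1.45 to 1.63, 1.23 to 1.39 and 1.55 to 1.74) and above venous-like cells in all 3 (1.23, 1.32 and 1.49, with the lowest bound at 1.13). Venous-like cells were above capillary-like cells in the young library (1.2497, 1.15 to 1.36) and above them by little more than counting error in the old one (1.10, 1.01 to 1.20), and the adult interval included 1 (0.992, 0.900 to 1.09). At a clustering resolution of 1.0 the old interval included 1 too (1.07, 0.980 to 1.17).

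For Tek the difference between zones was smaller. Arterial-like cells had 545, 466 and 468 CPM and capillary-like cells 439, 431 and 364 CPM, with ratios of 1.24 (1.08 to 1.42), 1.08 (0.940 to 1.24) and 1.28 (1.13 to 1.46). Only the adult interval included 1. Venous-like cells had Tek at 412, 447 and 384 CPM, with ratios to capillary-like cells whose intervals included 1. Tie1 gave ratios of 1.10, 1.02 and 1.11, with intervals of 0.884 to 1.37, 0.819 to 1.28 and 0.906 to 1.36 that each included 1.

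The lower Ptprb level of the old library was present in each of the 5 sub-clusters described at the resolution used. Old cells stood at 0.838 of the young level in capillary-like cells (0.791 to 0.888), 0.897 in arterial-like cells (0.843 to 0.954), 0.738 in venous-like cells (0.664 to 0.821) and 0.692 in the sub-cluster led by Myl9 (0.615 to 0.777). It was 0.326 (0.200 to 0.527) in the sub-cluster led by Pf4, which held only 3 young and 5 old cells. At a clustering resolution of 1.0 instead of 0.5, chosen after seeing the data for this ratio, it was 0.864 in capillary-like cells (0.809 to 0.922) and 0.779 in venous-like cells (0.704 to 0.861), and the interval for arterial-like cells (0.954, 0.881 to 1.03) included 1. The adult library stood lower than the young one in arterial-like (0.852, 0.797 to 0.911) and venous-like cells (0.795, 0.708 to 0.891) and level with it in capillary-like cells (1.00, 0.947 to 1.06). For Tek the old to young interval was below 1 in capillary-like (0.830, 0.735 to 0.937) and arterial-like cells (0.859, 0.743 to 0.992) and included 1 in the other 3.

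**Figure D3:**
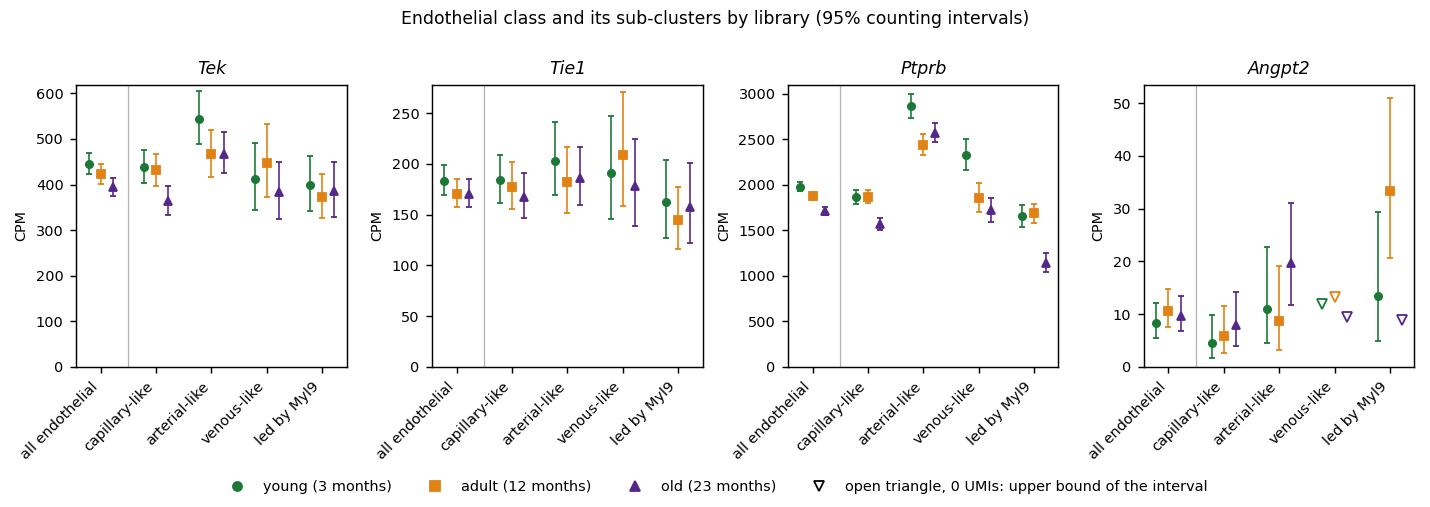
Levels (CPM, from 0) of Tek, Tie1, Ptprb and Angpt2 in the whole endothelial class and in 4 of its sub-clusters, with 1 point per library and bars for exact 95% counting intervals; an open triangle marks the upper bound at 0 UMIs. Ptprb was highest in arterial-like cells, and its old value lay under its young value in each group.

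Angpt2 was mainly a mural transcript. Pericytes had 92.3 CPM in the young library (65 UMIs, 71.2 to 118), 120 CPM in the adult library (65 UMIs, 92.2 to 152) and 90.05 CPM in the old library (45 UMIs, 65.7 to 120). All 3 intervals overlapped, and the ratios to young were 0.976 for old (0.652 to 1.45) and 1.29 for adult (0.904 to 1.85). With each cell's class taken from its own markers the adult ratio was 0.787 (0.450 to 1.33), on the other side of 1. Between 25.3 and 29.2% of pericytes held an Angpt2 UMI, against 0 to 1.20% of rods, at median depths of 3927 to 4674 UMIs. After thinning to 2000 UMIs the shares were 14.5, 18.5 and 12.8% in pericytes and 0% in all 3 rod groups, for which 3 cells would be 2.86, 1.39 and 2.11%.

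Smooth muscle cells had Angpt2 at 35.8, 73.0 and 50.1 CPM (11, 24 and 18 UMIs). Pericytes were above them in each library, with ratios of 2.58 (1.35 to 5.42), 1.64 (1.01 to 2.74) and 1.80 (1.02 to 3.30). The old ratio was 1.12 after thinning to 2000 UMIs, with an interval (0.374 to 4.01) that included 1. The age ratios in smooth muscle cells, 1.40 for old to young (0.627 to 3.28) and 2.04 for adult to young (0.962 to 4.61), included 1.

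In endothelial cells Angpt2 was low: 8.35 CPM in the young library (27 UMIs, 5.50 to 12.2), 10.6 CPM in the adult library (36 UMIs, 7.45 to 14.7) and 9.71 CPM in the old library (35 UMIs, 6.76 to 13.5). Of the 36 adult UMIs 12 came from 1 cell. Pericytes were 11.1-fold, 11.2-fold and 9.28-fold above (intervals of 6.96 to 18.0, 7.37 to 17.4 and 5.83 to 14.9). The fold was 3.40, 4.20 and 3.77 with mixed droplets counted as endothelial, and 6.66, 15.0 and 4.66 after thinning to 2000 UMIs. The share of endothelial cells with an Angpt2 UMI was 4.98, 5.09 and 5.91%. Between ages the intervals overlapped, with ratios to young of 1.16 for old (0.683 to 1.996) and 1.27 for adult (0.752 to 2.18). Neither direction held under all settings. Old to young was 0.881 (0.715 to 1.08) with mixed droplets counted in the class. Adult to young was 0.566 (0.255 to 1.19) with each cell's class taken from its own markers, 0.578 (0.175 to 1.70) after thinning and 0.961 as a mean over cells. Without the sub-cluster led by Myl9, described above, it was 0.723 (0.347 to 1.47), and pericytes were 22-fold above the adult endothelial cells.

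Pericyte RNA was present in the same endothelial droplets. Pooled over libraries, Angpt2 in endothelial cells was at 9.57% of its pericyte level and the summed pericyte markers at 5.05% of theirs. By library the markers were at 5.66, 5.999 and 3.66% and Angpt2 at 9.05, 8.90 and 10.8%. The 97 endothelial cells with fewer than 2 UMIs of other classes' markers held 0 Angpt2 UMIs of 308739, where 3 counts would be 9.72 CPM, so that a level like that of the whole class was not excluded at this depth. Their filter removed cells with pericyte marker UMIs, and so favoured low pericyte RNA.

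Over the vessel zones, endothelial Angpt2 rested on few UMIs. Arterial-like cells held 7, 6 and 18 Angpt2 UMIs in the young, adult and old library, 13.9 CPM pooled (9.42 to 19.7). Capillary-like cells held 6, 8 and 11, 6.15 CPM pooled (3.98 to 9.08). Venous-like cells held 0 in every library, of 979166 UMIs in 70 cells, for which 3 counts would be 3.06 CPM. The exact interval of the pooled ratio of arterial-like to venous-like cells began at 3.47. Most of the arterial-like UMIs were from the old library. The ratio of arterial-like to capillary-like cells was 2.42 in the young library (0.697 to 8.73), 1.48 in the adult library (0.424 to 4.87) and 2.49 in the old library (1.11 to 5.83), so that the young and adult intervals included 1, and pooled it was 2.26 (1.29 to 3.98). At resolution 1.0 the arterial-like cells held only 3, 3 and 5 Angpt2 UMIs, and 17 of the old UMIs were in a sub-cluster led by Cxcl10. There the arterial-like to capillary-like ratio was 2.60 in the old library (0.559 to 13.1) and 2.21 pooled (0.897 to 5.35), both with intervals that included 1, and the pooled interval against venous-like cells, which still held 0, began at 2.33. In single libraries the upper bound of the venous-like level was 12.0, 13.3 and 9.37 CPM, and of the 3 arterial-like levels only the old one (19.7 CPM) lay above it. At resolution 1.0 the old arterial-like level was 9.78 CPM beside an upper bound of 8.76 CPM in venous-like cells, but the exact interval of their ratio began at 0.755 and included 1.

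The pericyte markers did not follow that order. Pooled, they were at 2.39% of the pericyte level in arterial-like cells, 3.996% in capillary-like cells and 2.61% in venous-like cells. Smooth muscle markers followed it only in part. They were highest in arterial-like cells (0.553% of their level in smooth muscle cells) but lower in capillary-like cells (0.128%) than in venous-like cells (0.167%). In the sub-cluster led by Myl9, where pericyte markers were at 15.4%, Angpt2 had 6, 21 and 0 UMIs in the young, adult and old library.

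Among the classes of the vessel wall, Angpt1 was highest in smooth muscle cells. They had 74.8 CPM in the young library (23 UMIs, 47.4 to 112), 66.9 CPM in the adult library (22 UMIs, 41.9 to 101) and 41.8 CPM in the old library (15 UMIs, 23.4 to 68.9). The old value was the lowest, but the intervals overlapped, with an old to young ratio of 0.559 (0.271 to 1.12). This ratio was 0.192 (0.0194 to 1.01) with each cell's class taken from its own markers, which left 8 young and 9 old smooth muscle cells, and 0.992 (0.671 to 1.46) with mixed droplets counted in the class. An Angpt1 UMI was found in 42.1, 28.9 and 27.0% of these cells and in 0% of 166, 321 and 236 rods, for which 3 cells would be 1.81, 0.935 and 1.27%. After thinning to 2000 UMIs the shares were 13.2, 7.89 and 5.41% in smooth muscle cells and 0% in rods.

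Pericytes had less Angpt1. Their levels were 21.3 CPM (15 UMIs, 11.9 to 35.1), 25.7 CPM (14 UMIs, 14.1 to 43.2) and 22.01 CPM (11 UMIs, 10.99 to 39.4) in the young, adult and old library. Smooth muscle cells were 3.51-fold (1.75 to 7.24), 2.60-fold (1.27 to 5.49) and 1.90-fold (0.814 to 4.57) above them, so that only the old interval included 1. The folds were 7.04, 6.26 and 3.60 with mixed droplets counted as pericytes and 10.0, 1.89 and 1.74 after thinning, and the young one was 8.61 with each cell's class taken from its own markers. In pericytes the old to young ratio was 1.03 (0.429 to 2.41), and after thinning to 2000 UMIs it was 3.53 (0.507 to 39.1), beside 4.22 for adult to young (0.755 to 42.8). Smooth muscle markers in pericyte droplets were at 5.88, 10.2 and 7.25% of their level in smooth muscle cells, and Angpt1 at 28.5, 38.5 and 52.7%.

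Angpt1 also differed between the mixed clusters, both of which carried all 8 endothelial markers and neither of which met the smooth muscle list. In cluster 2, with all 7 pericyte markers, Angpt1 was at 6.69, 5.23 and 6.37 CPM (23, 15 and 18 UMIs). Cluster 9 met 4 of the 7 pericyte markers. Its 10 leading genes held the arterial genes Gkn3, Vegfc and Bmx, but also Sncg, a leading gene of the smooth muscle cluster, and Map3k7cl, a gene among the 3 most like Angpt1. In it Angpt1 was at 16.4, 18.2 and 26.6 CPM (17, 18 and 17 UMIs), above cluster 2 in each library, though the young intervals (9.56 to 26.3 and 4.24 to 10.0) overlapped. The intervals of Angpt2 overlapped in each library, at 41.0, 47.1 and 40.7 CPM in cluster 2 and at 39.6, 35.4 and 29.8 CPM in cluster 9.

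**Figure D4:**
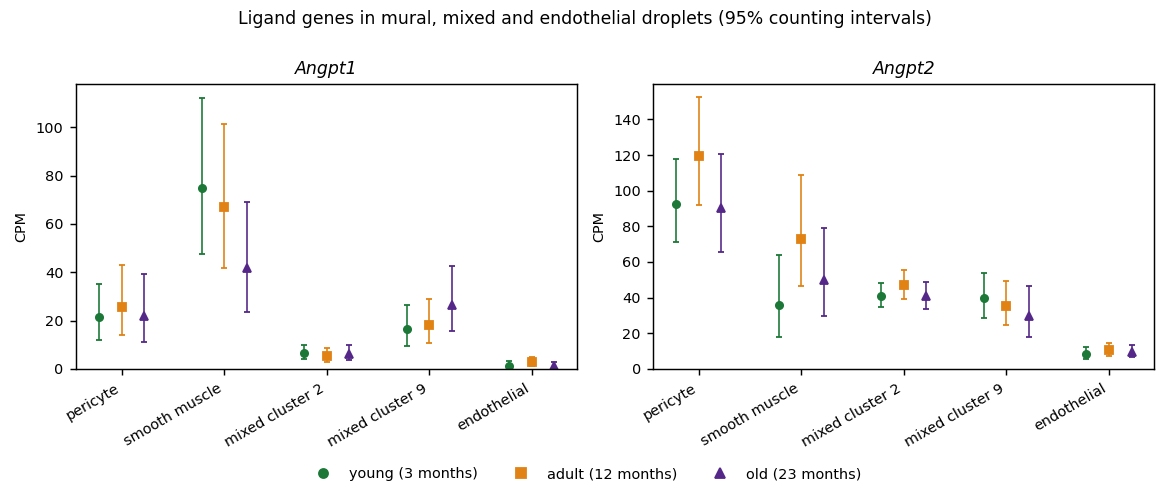
Levels (CPM, from 0) of Angpt1 and Angpt2 in pericytes, smooth muscle cells, both mixed endothelial and pericyte clusters and endothelial cells, with 1 point per library and bars for exact 95% counting intervals. Angpt1 was highest in smooth muscle cells (41.8 to 74.8 CPM) and Angpt2 in pericytes (90.05 to 120 CPM).

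Endothelial cells held 4, 9 and 4 Angpt1 UMIs, or 1.24, 2.66 and 1.11 CPM. These UMIs were concentrated in few droplets. The 60 endothelial cells with at least 2 UMIs of the platelet genes Pf4 and Ppbp held 8 of the 17, or 11.2 CPM (4.83 to 22.05), and the other 1220 cells held 9, or 0.947 CPM (0.433 to 1.80). This split was chosen after its values were seen. In the mixed class the same split gave 8.55 CPM with platelet genes (3.14 to 18.6) and 9.19 CPM without (7.50 to 11.2), and 4 pericytes with platelet genes held 0 Angpt1 UMIs. Müller glia held 0 Angpt1 UMIs in all 3 libraries, of 5166985 in 603 cells, for which 3 counts would be 0.581 CPM.

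Angpt1 was also present outside the vessel wall, in an unnamed cluster of 64 cells that met none of the marker lists and was led by neuronal genes such as Slit2, Neto1, Cdh8 and Scgn. It had 32.1 CPM in the young library (4 UMIs, 8.75 to 82.2), 71.9 CPM in the adult library (12 UMIs, 37.2 to 126) and 43.5 CPM in the old library (4 UMIs, 11.8 to 111). The libraries overlapped, and the pooled level, 52.2 CPM (31.9 to 80.6), did not differ from that of smooth muscle cells beyond counting error (smooth muscle over this cluster 1.16, 0.687 to 2.02). Pericyte markers summed to 24.1, 36.0 and 76.1 CPM there, with 5, 4 and 4 of the 7 at 0, and the 5 fibroblast markers were at 0. Smooth muscle markers summed to 120, 174 and 76.1 CPM, with 5, 3 and 5 of the 6 at 0. Bipolar markers summed to 4810, 5172 and 5130 CPM, with 1, 2 and 2 of the 6 at 0. Of the 10 leading genes of this unnamed cluster, Tnnt1, Scgn and Scg2 were also leading genes of a bipolar cluster of 70 cells. The bipolar class, which did not include the unnamed cluster, held 0 Angpt1 UMIs in each library. That 0 therefore does not cover all cells with bipolar markers.

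The pigment epithelium cluster held 21 Angpt1 UMIs, all in the old library (15 of 54 cells, 80.3 CPM, 49.7 to 123). The young and adult libraries had only 1 and 7 cells of it, so that no age comparison was possible. Platelet genes were high in the same droplets: 52 of the 62 cells held Pf4 and 47 held Gp9. All 21 UMIs came from the 51 cells with at least 2 UMIs of Pf4 and Ppbp, and the other 11 cells held 0 (upper bound 68.5 CPM). Of the 51, 14 cells had no Rpe65, the visual cycle enzyme of pigment epithelium, and they held 12 of the 21 UMIs.

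The other genes of the pathway were read from a list of 32. In endothelial cells 27 had enough UMIs and 0 were past the 1.5-fold limit between old and young in either direction, beside 4.91 and 3.1% of all genes; the median log2 ratio was -0.05 and that of all genes 0.02. Foxo1, the transcription factor that Tie2 signalling restrains through AKT, was at 118, 112 and 87.3 CPM in the young, adult and old library (old to young 0.739, 0.635 to 0.860). In the mixed endothelial and pericyte class it was at 84.5, 78.9 and 81.1 CPM, with an old to young interval that included 1 (0.96, 0.82 to 1.12). Klf2, a gene of quiescent endothelium, was at 2347, 2471 and 2600 CPM (1.11, 1.07 to 1.14). Cdh5, the cadherin that VE-PTP binds, was at 530, 528 and 513 CPM (0.966, 0.905 to 1.03), and Itgb1, an integrin chain that binds angiopoietins, at 330, 335 and 321 CPM (0.972, 0.894 to 1.06). In the mixed class the old to young ratios of these 3 genes were 1.16 (1.12 to 1.20), 0.909 (0.844 to 0.978) and 1.01 (0.945 to 1.07).

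In pericytes 16 of the 32 were measured between old and young, and 3 were past the fold upward (Shc1, Ptpn11 and Klf2) and 1 downward (Pik3r2), beside 7.55 and 4.27% of 3908 genes. Angpt2 and Ptprb were the measured genes of the set, and 0 of 2 were past it. For adult over young the background was 5.31% upward and 3.53% downward of 3995 genes, and again 0 of 2 were past it. For old over adult it was 5.69% and 4.07% of 3515 genes, and 1 of 2, Ptprb, was past it upward, while the summed endothelial markers in these pericytes were 842 CPM in adult and 985 CPM in old. That call was lost with each cell's class taken from its own markers, where the ratio was 1.03. Shc1, an adaptor, was at 58.2 and 90.05 CPM in young and old (1.55, 0.990 to 2.42). Ptpn11, the phosphatase SHP2, was at 73.8 and 118 CPM (1.60, 1.08 to 2.37), and Klf2 at 153 and 230 CPM (1.501, 1.14 to 1.97). Pik3r2, a regulatory subunit of PI3 kinase, was at 51.1 and 28.0 CPM (0.548, 0.273 to 1.04). Endothelial markers in pericytes were at 697 CPM in young and 985 CPM in old. Of the 12 dissociation genes, Fosb, Jun, Hspa1a and Hspa1b were past the fold downward in old pericytes and Atf3 upward, and their sum was 10270 CPM in young and 8128 CPM in old. The part of either shift in these ratios was not tested. In Müller glia 19 of the 32 were measured and 0 were past the fold, beside 5.15 and 3.43% of 7396 genes, and 0 of the 5 genes of the set had enough UMIs.

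The genes most like each gene of the set were found by Pearson's correlation of log2(CPM + 1) over 30 profiles (10 classes in 3 libraries) among 11197 genes. The profiles of a library share its depth and free RNA, so the values are a description. Tek was most like Tie1 (r = 0.98), Slco1a4 (0.98), a transporter of retinal and brain endothelium, and Cavin2 (0.98), a caveolar coat gene. Tie1 was most like Tek, Cavin2 (0.97) and Fli1 (0.97), an ETS factor, and Ptprb was most like Tek (0.97), Cavin2 (0.97) and Pdgfb (0.97), the ligand that recruits pericytes. Angpt2 was most like Twist1 (0.95), Tbxa2r (0.94) and Tbx3os1 (0.93), and Angpt1 was most like Ccdc3 (0.96), Map3k7cl (0.96) and Cdkn2a (0.95). Angpt1 and Angpt2 had r = 0.84 with each other, and between 0.12 and 0.49 with Tek, Tie1 and Ptprb.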

How the data were processed

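The deposited files hold raw UMI counts per gene and barcode for 3 libraries. Per the labels and the study's methods, the authors made them with Cell Ranger 6.1.2 on mm10 from 10x 3′ libraries, with no normalization. Of the 32285 gene IDs, 32235 were found in GENCODE M21 on GRCm38.

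Barcodes with 500 to 6000 genes and 1 to 20% mitochondrial UMIs were kept, as in the study. Scrublet (in scanpy 1.11.5) marked 0.467 to 0.861% of cells as doublets, and the mixed clusters show that it left many. Cells were integrated and clustered with Seurat 5.3.0 (R 4.3.3; 2000 features without the 5 genes, 30 principal components, resolution 0.5). Clusters were named from marker lists, and the naming thresholds and the zone rule were set after the clusters were seen. UMIs were summed by class and library and divided by the class total (CPM). Intervals are exact Poisson, Clopper-Pearson and conditional binomial intervals from scipy 1.17.1, and the calculations were tested on simulated data. A level of 0 is given with the level that 3 counts would have. Genes were compared between ages with at least 50 UMIs over a pair of libraries. With 1 library per age no test was made, and age cannot be told apart from library. The 5 genes, the gene lists and the naming rules were chosen with earlier results of these data known. The genes named as most alike are the 3 with the highest Pearson correlation among genes with at least 200 UMIs, and other genes are from the pathway and marker lists. Platelet genes were added after values were seen. One endothelial sub-cluster is not reported here.

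Alternatives changed the limits on cells, doublets, depth (thinning to 2000 UMIs), weighting of cells, scaling, class definition, thresholds, likeness measure and clustering resolution. Omission of cells with platelet genes and of the sub-cluster led by Myl9, and the alternatives for Ptprb in pericytes, were chosen after seeing the data.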

Additional observations from a re-analysis of the deposited data

How the results depend on the processing

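No paired analysis was possible because each age is 1 library, and no library could be left out. Of 86 alternative values for the endothelial age ratios, 72 moved by less than the counting interval, and so did 32 of 36 for mural Angpt1 and 140 of 157 for the ratios between classes, all 157 of which stayed above 1. Leaving out cells with 2 or more marker UMIs of another class kept only 97 endothelial cells and 27 pericytes, and 28 ratios had no value there. In those cells Tek turned to 1.2495 for old over young and was 1.06 for adult over young, Ptprb turned to 1.07 for adult over young and was 0.920 for old over young, Tie1 was 0.438 and 0.678, and Tek in endothelial cells over pericytes was 6.57 in the old library. After thinning, adult over young was 0.578 for Angpt2, 0.777 for Tek and 1.07 for Tie1. Angpt1 in pericytes was then 3.53 (old over young) and 4.22 (adult over young), smooth muscle over pericyte Angpt1 was 10.0 in the young library, pericyte over endothelial Angpt2 was 6.66 (young) and 4.66 (old), and endothelial over pericyte Ptprb was 28.6 (adult). With each cell's class taken from its own markers, which left 8, 6 and 9 smooth muscle cells, Angpt2 adult over young was 0.566, Ptprb old over young 0.904, and Angpt1 in smooth muscle cells 0.192 (old over young) and 0.369 (adult over young). There, Angpt1 in smooth muscle cells over pericytes was 8.61 (young), and endothelial over pericyte ratios were 44.5, 53.8 and 21.0 for Tek and 22, 54.4 and 49.6 for Ptprb (young, adult, old). With mixed droplets counted in their classes, Ptprb in pericytes turned to 0.841 for old over adult and 1.01 for adult over young, endothelial Ptprb adult over young was 0.988, pericyte over endothelial Angpt2 was 3.40, 4.20 and 3.77 (mixed as endothelial), and smooth muscle over pericyte Angpt1 was 6.26 (adult, mixed as pericytes). The mean over cells gave 0.915 for Ptprb old over young. Without the sub-cluster led by Myl9, Angpt2 adult over young was 0.723 and adult pericytes were 22-fold above endothelial cells. Of all genes between old and young endothelial cells, 1305 were higher and 993 lower at a fold limit of 5/4, 133 and 44 with at least 200 UMIs, and 1068 and 908 with at least 10 UMIs, against 440 and 278. Of the 27 measured genes of the pathway list, 2 were higher and 5 lower at 5/4, beside those 1305 and 993 of 8962 genes. With at least 10 UMIs 1 gene of the list was lower, beside 908 of all genes at that limit. Of the 3 genes most alike, 1 was shared for Angpt1, Tek and Tie1 with log2(CPM + 10), and 1 for Angpt1, Angpt2 and Tie1 with Spearman's correlation. At resolution 1.0, arterial-like over capillary-like was 1.62 for Ptprb and 1.30 for Tek. Apart from the loss of cells, the cause of these shifts was not tested. Angpt1 and endothelial Angpt2 rest on few UMIs per library, which limits their ratios.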

Other observations

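Angpt4, the third angiopoietin gene, lies on chromosome 2 (151911210 to 151945337, plus strand, GRCm38) and had 35 UMIs in all cells used, 31 from young, 2 from adult and 2 from old retinas. Of these, 30 were in 5 young cells of the Müller class, each with 2 to 11 Angpt4 UMIs. The astrocyte markers Gfap and S100b were at 1546 and 4662 CPM in those 5 cells and at 21.6 and 43.8 CPM in the other 176 young Müller cells. Pax2 was at 158 and 3.18 CPM, and Pdgfra, a gene of astrocytes and their precursors that was picked after its values were seen, at 1631 and 5.08 CPM. Aldh1l1 (36.5 and 51.5 CPM) did not follow, and Rlbp1, a Müller gene, was at 1071 and 3239 CPM. At least 3 of the 4 astrocyte markers were found in 6 young, 0 adult and 0 old cells, and 5 of those 6 held Angpt4. With so few cells, all from 1 library, no comparison of ages can be made.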
